A study of Mus musculus with 6 samples.

Results

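The 36 genes described here encode proteins that license replication origins, run the replication fork and supply its deoxynucleotides. They were taken from a list of gene symbols, and all 36 had a row among the 48587 rows of the count table. The counts came from ribosome-bound RNA of neonatal mouse kidney, in 3 libraries of control littermates and 3 libraries of Foxp1-deficient neonates. Controls carried Cdh16-Cre, the RiboTag allele and Foxp1fl/+, whereas Foxp1-deficient animals carried Cdh16-Cre, the RiboTag allele and Foxp1fl/fl, so every library came from a Cre-positive animal with at least 1 floxed allele of Foxp1, a forkhead transcription factor gene. With RiboTag, ribosomes become HA-tagged wherever Cre is active, here under the promoter of the tubule cadherin gene Cdh16, and were recovered with an antibody to HA. The treatment label read vehicle treatment for controls and chronic acid load for Foxp1-deficient samples although the protocols describe no acid load, so genotype and treatment cannot be told apart. Nothing in the labels says that equally labelled libraries are separate animals, and the p-values reflect only how far these libraries spread, which may be technical.

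Replication starts with licensing: in G1 the origin recognition complex, Cdc6 and Cdt1 load the Mcm2 to Mcm7 ring onto DNA, and in S phase Cdc45 and the GINS complex turn that ring into an active helicase. Replication factor C then loads the sliding clamp Pcna, DNA polymerases copy the strands, and ribonucleotide reductase, thymidylate synthase and thymidine kinase provide deoxynucleotides. Most of these genes are targets of E2F transcription factors and are transcribed in dividing cells, which are abundant in the neonatal kidney, where nephrons are still forming.

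The libraries held 9710048 to 18958196 counts each. Both libraries numbered 2 had the fewest counts and the fewest genes with a count (13885 and 14285, against 18241 to 22190 in the others), and they stand apart in many of the values below. Foxp1 had 48.8, 30.8 and 35.9 CPM in controls 1, 2 and 3 against 34.6, 11.4 and 29.3 CPM in Foxp1-deficient samples 1 to 3, and exons left in the floxed allele are counted too, so it checks the genotype only in part. CPM here and below are counts relative to a library's total over tested genes (the usual CPM scale), scaled by TMM. The labels name kidney tubular cells, but Cdh16 itself had 0.332, 10.9 and 43.0 CPM in the controls against 0.283, 2.42 and 42.1 CPM in the Foxp1-deficient samples. The summed level of 10 distal nephron and collecting duct genes ran from 5.74 to 22.2 CPM in the libraries numbered 1 and 2 and was 245 and 274 CPM in those numbered 3, with Umod at 0 in controls 1 and 2 and in Foxp1-deficient library 2. Col1a1, a fibrillar collagen gene of stroma, had 2158 to 8928 CPM. How much of the RNA came from Cre-active tubule cells was not tested, so the levels below may stand for other kidney cells too. This applies above all to the libraries numbered 1, where Cdh16 was lowest. It applies as well to Foxp1-deficient library 2, where the distal nephron and collecting duct sum was lowest and 8 of the 10 genes had no count.

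All 36 replication genes were detected in each library except Fen1, which had no count in Foxp1-deficient library 2. Of the 36, 33 had at least 100 counts in every library. Together they made up 0.349%, 0.287% and 0.319% of all counts in controls 1, 2 and 3, against 0.327%, 0.272% and 0.275% in Foxp1-deficient samples 1 to 3. Their summed level was 3308, 3390 and 2821 CPM in the controls (mean 3173 ± 307, SD, n = 3) and 3111, 3369 and 2388 CPM in the Foxp1-deficient samples (2956 ± 508). The groups overlapped, and the library numbered 3 was the lowest in each. Within pairs of equal number, the summed level differed by -0.09, -0.01 and -0.24 on the log2 scale (Foxp1-deficient minus control, pairs 1, 2 and 3).

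**Figure D1:**
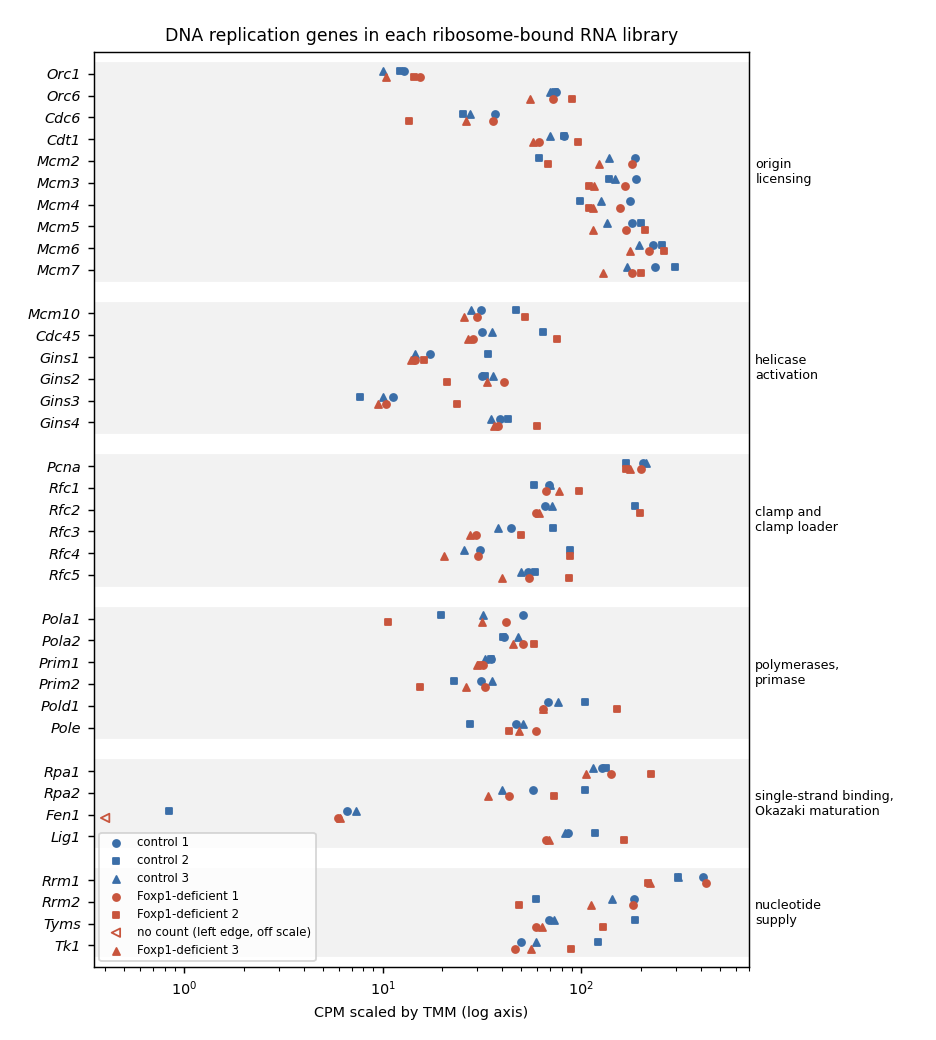
CPM scaled by TMM (log axis) of the 36 replication genes, in rows grouped by role, with 1 point per library; blue points are controls, red points Foxp1-deficient libraries, and marker shape gives the replicate number. The groups overlap for all genes but Prim1, Fen1 lies lowest, and the squares of the libraries numbered 2 lie apart from the other points of many genes in both groups.

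Between genotypes, 0 of the 36 replication genes passed edgeR's quasi-likelihood test at an adjusted p under 0.05 (0% of the 14311 genes tested passed), and 0 had an unadjusted p under 0.05 (0.720% of all genes did). DESeq2 (0.0419% of all genes called) and limma-voom with quality weights (0%) also called none of them. Log2 fold changes ran from -0.56 to 0.58, with standard errors of 0.32 to 1.47 and an adjusted p of 0.9998 for each gene. In this fit 25 of the 36 were lower in Foxp1-deficient samples and 11 higher, where 46.4% of all genes tested were lower and 53.6% higher. With the replicate block described next, 27 were lower and 9 higher (50.5% and 49.5% of all genes). The median log2 fold change of the 36 genes was -0.07 without the block, against 0.03 over all genes tested, and -0.10 with it, against -0.01. Without control 2 the median was 0.02 with 17 genes lower (all genes tested: -0.04, 53.5% lower). Without Foxp1-deficient library 3 it was -0.01 with 18 lower (all genes tested: -0.02, 51.4% lower). Leaving out a single library also breaks a pair of equal number. With both libraries numbered 2 left out the median was -0.15 with 29 genes lower (all genes tested: -0.001, 50.2% lower). With both numbered 3 left out it was -0.02 with 22 lower (all genes tested: 0.03, 47.1% lower). In bulk RNA, fewer cells of a type and less RNA per cell cannot be told apart.

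Comparing libraries of equal number, 14 of the 36 genes were lower in the Foxp1-deficient library of all 3 pairs (16.0% of all genes tested were), 1 was higher in all 3 (16.5% of all genes), and 21 went both ways. Groups did not overlap for 1 gene, Prim1, which was lower (2.11% of all genes were lower without overlap), and for 0 in the other direction (2.64%). Blocked by replicate number, edgeR again called 0 of the 36 (0% of all genes), with adjusted p from 0.853 to 0.989. At an unadjusted p under 0.05 that fit had 3 of the 36, all lower: Mcm7, Rfc3 and Rpa2 (5.32% of all genes passed this level, 2.26% as lower). Fits with the block called 171 genes in DESeq2 (1.19%) and 244 in limma-voom with quality weights (1.70%), and none of these was a replication gene, nor of the genes called by limma-voom with the block and no weights (0.0559%), with a lowest adjusted p among the 36 of 0.173 in DESeq2 and 0.0937 in limma-voom with quality weights. Without both libraries numbered 2, edgeR called none of the 36 with (0.196% of all genes) or without the block (0%), and the same held without both numbered 3 (0.0431% and 0%).

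**Figure D2:**
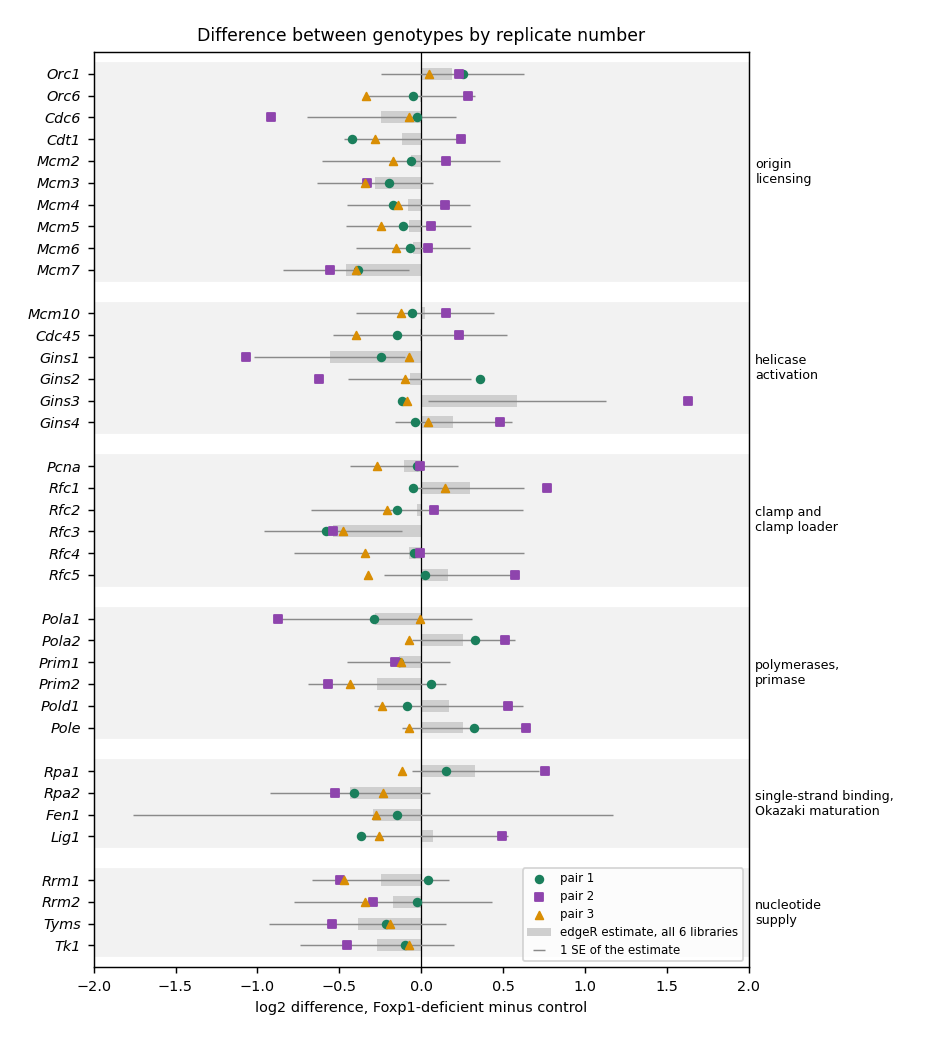
Log2 difference (Foxp1-deficient minus control) of each replication gene within pairs 1, 2 and 3 (points) and the edgeR estimate over all 6 libraries (grey bars, with 1 SE). For Mcm7 and Rfc3 the points of all 3 pairs lie close together below 0, whereas pair 2 lies far from the others for Gins1, Gins3 and Cdc6; Fen1 has no point for pair 2 because it had no count in Foxp1-deficient library 2.

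Of the 10 origin licensing genes, 9 were lower and 1 higher in Foxp1-deficient samples, with a median log2 fold change of -0.08, and none passed the test. Mcm7, a subunit of the replicative helicase ring, had 236, 297 and 169.9 CPM in controls 1, 2 and 3 against 180.2, 202 and 129 CPM in Foxp1-deficient samples 1 to 3. Each Foxp1-deficient library lay below the control of its number, while the groups overlapped, since control 3 was lower than Foxp1-deficient samples 1 and 2. The pair differences were -0.39, -0.56 and -0.40 on the log2 scale. The log2 fold change was -0.46 (SE 0.39, unadjusted p = 0.271, edgeR quasi-likelihood test), with a 95% interval from -1.36 to 0.44. With the replicate block it was -0.45 (SE 0.12, interval -0.76 to -0.13, unadjusted p = 0.0148 and adjusted p = 0.853, edgeR quasi-likelihood test).

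Mcm3, another subunit of the ring, had 190, 138 and 147 CPM in the controls against 166, 109.9 and 116 CPM in the Foxp1-deficient samples. It too was lower in every pair, by smaller differences of -0.20, -0.33 and -0.35 on the log2 scale, and its groups overlapped. Mcm6, the ring subunit with the highest level per exon length, had 231, 255 and 197 CPM in the controls against 220.1, 262 and 177 CPM in the Foxp1-deficient samples, a log2 fold change of -0.05 (SE 0.35). The 6 ring subunits make 1 hexamer, yet their log2 fold changes ran from -0.46 for Mcm7 to -0.05 for Mcm6, each within its standard error of 0 except that of Mcm7. Orc1, the largest subunit of the origin recognition complex, was the only gene of the 36 that was higher in all 3 pairs, with 12.9, 12.3 and 10.1 CPM in the controls against 15.4, 14.4 and 10.4 CPM in the Foxp1-deficient samples. Cdc6, a loading factor, had 36.8, 25.5 and 27.6 CPM in controls against 36.1, 13.5 and 26.2 CPM in Foxp1-deficient samples, lower in all 3 pairs and most so in pair 2. Cdt1, its partner in loading, went both ways between pairs, with a log2 fold change of -0.12 (SE 0.35). Orc6, the smallest subunit of the recognition complex, was at 70.1 to 75.1 CPM in controls and spread wider, from 55.4 to 89.8 CPM, in Foxp1-deficient samples.

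The 6 genes of helicase activation had 3 lower and 3 higher, with a median log2 fold change of 0.01. Gins1 to Gins4 encode the 4 subunits of the GINS complex, and their estimates differed in direction between Gins1 and Gins3. Gins1 had 17.3, 33.9 and 14.6 CPM in the controls against 14.7, 16.2 and 13.9 CPM in the Foxp1-deficient samples. Control 2 alone was high, and the log2 fold change of -0.56 (SE 0.46, unadjusted p = 0.263, edgeR quasi-likelihood test) was -0.11 without it. Gins3 had 11.2, 7.67 and 10.0 CPM in the controls against 10.4, 23.7 and 9.43 CPM in the Foxp1-deficient samples. Here Foxp1-deficient library 2 alone was high, and the log2 fold change was 0.58 (SE 0.54) with all libraries and -0.10 without those numbered 2. Gins4 had 39.0, 43.0 and 35.3 CPM against 38.1, 60.05 and 36.4 CPM, again highest in Foxp1-deficient library 2. Mcm10 and Cdc45, which bind the helicase as origins fire, had log2 fold changes of 0.02 (SE 0.42) and -0.01 (SE 0.53). Gins2 ranged from 31.8 to 35.9 CPM in controls and from 21.2 to 40.9 CPM in Foxp1-deficient samples.

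Among the sliding clamp and the 5 clamp loader genes, 4 had a lower and 2 a higher estimate (median -0.05). Pcna, the clamp that tethers polymerases to DNA, had 206, 169 and 212 CPM in the controls against 202, 169 and 176 CPM in the Foxp1-deficient samples. Its log2 fold change was -0.10 (SE 0.33), and the groups overlapped. Rfc3, a small subunit of the clamp loader, had 44.3, 72.6 and 38.3 CPM in controls against 29.6, 49.98 and 27.5 CPM in Foxp1-deficient samples. The library numbered 2 was the highest of each group, and within pairs the differences were nearly equal, at -0.58, -0.54 and -0.48 on the log2 scale. The log2 fold change was -0.54 (SE 0.42, unadjusted p = 0.242, edgeR quasi-likelihood test), with a 95% interval from -1.52 to 0.45. With the replicate block it was -0.53 (SE 0.15, interval -0.92 to -0.15, unadjusted p = 0.0159 and adjusted p = 0.853, edgeR quasi-likelihood test). Rfc1, the large subunit, had 68.9, 57.7 and 69.8 CPM in controls against 66.6, 98.0 and 77.2 CPM in Foxp1-deficient samples. Its pair differences were -0.05, 0.77 and 0.15 on the log2 scale. The log2 fold change of Rfc1 was 0.30 (SE 0.33), but 0.06 without both libraries numbered 2. The estimates of Rfc3 and Rfc1 thus differed in direction, although neither passed the test. Rfc5, another small subunit, ranged from 49.9 to 58.6 CPM in controls and from 39.8 to 87.2 CPM in Foxp1-deficient samples, with library 2 the highest of each group.

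The 6 polymerase and primase genes had 3 lower and 3 higher, with a median of 0.02. Pola2, the accessory subunit of DNA polymerase alpha, had 40.7, 40.7 and 47.9 CPM in the controls against 51.1, 58.0 and 45.5 CPM in the Foxp1-deficient samples (log2 fold change 0.26, SE 0.32). Pola1, the catalytic subunit of the same enzyme, had 50.9, 19.6 and 31.9 CPM and 41.7, 10.7 and 31.7 CPM. The libraries numbered 2 were the lowest of each group for Pola1, whereas Foxp1-deficient library 2 was the highest for Pola2. Pole, the catalytic subunit of the leading-strand polymerase, had 47.2, 27.7 and 51.3 CPM in controls against 59.0, 43.2 and 48.6 CPM in Foxp1-deficient samples (log2 fold change 0.26, SE 0.37). Pold1, the catalytic subunit of the lagging-strand polymerase, had 68.2, 104.8 and 76.2 CPM and 64.4, 152 and 64.4 CPM. Its log2 fold change of 0.17 (SE 0.45) turned to -0.16 without the libraries numbered 2. Prim1, the catalytic subunit of primase, had 35.3, 35.2 and 32.7 CPM in controls against 32.2, 31.5 and 30.0 CPM in Foxp1-deficient samples. These groups did not overlap, but the log2 fold change was only -0.14 (SE 0.32, unadjusted p = 0.675, edgeR quasi-likelihood test). Prim2, its regulatory partner, ranged from 22.9 to 35.8 CPM in controls and from 15.4 to 32.8 CPM in Foxp1-deficient samples, with library 2 the lowest of each group.

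The 4 genes of single-strand binding and Okazaki fragment maturation had 2 lower and 2 higher, with a median of -0.11. Rpa1 and Rpa2 encode subunits of replication protein A, which coats single-stranded DNA. Rpa2 had 57.5, 104.8 and 39.8 CPM in controls against 43.2, 72.7 and 33.8 CPM in Foxp1-deficient samples, and was lower in each pair, by -0.41, -0.53 and -0.23 on the log2 scale. Its log2 fold change was -0.43 (SE 0.49), 0.02 without control 2 alone and -0.33 without both libraries numbered 2. With the replicate block it was -0.39 (SE 0.15, unadjusted p = 0.0432 and adjusted p = 0.853, edgeR quasi-likelihood test). Rpa1 had 127, 133 and 115 CPM in controls against 141, 224 and 106 CPM in Foxp1-deficient samples (log2 fold change 0.33, SE 0.39), with library 2 the highest of each group. Lig1, the ligase that joins Okazaki fragments, had 86.3, 117 and 82.8 CPM and 66.9, 165 and 69.3 CPM, higher in pair 2 and lower in pairs 1 and 3.

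All 4 nucleotide supply genes were lower in Foxp1-deficient samples, with a median log2 fold change of -0.26, and none passed the test. Rrm1, the large subunit of ribonucleotide reductase, had 412, 308 and 308 CPM in controls against 424, 218 and 222 CPM in Foxp1-deficient samples (log2 fold change -0.25, SE 0.42). It was higher in pair 1 by 0.04 and lower in pairs 2 and 3, by -0.50 and -0.47 on the log2 scale. Rrm2, the small subunit, had 185, 59.5 and 143 CPM and 182, 48.6 and 113 CPM, lower in each pair with a log2 fold change of -0.17 (SE 0.60). Tyms, thymidylate synthase, had 68.7, 188 and 72.8 CPM in controls against 59.2, 129 and 63.9 CPM in Foxp1-deficient samples, lower in each pair (log2 fold change -0.39, SE 0.54). The log2 fold change of Tyms was 0.23 without control 2 alone, but -0.20 without both libraries numbered 2. Tk1, thymidine kinase, had 50.1, 122 and 59.2 CPM and 46.7, 89.0 and 56.3 CPM, lower in each pair as well. Rrm2 thus had its lowest values in the libraries numbered 2, and Tyms and Tk1 their highest.

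**Figure D3:**
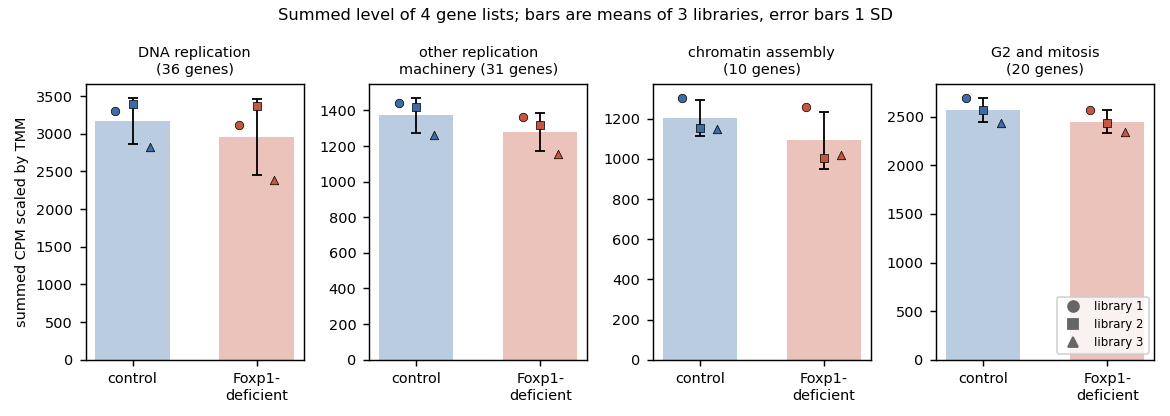
Summed CPM scaled by TMM of 4 gene lists, with bars for the mean of 3 libraries, error bars of 1 SD and points for libraries 1, 2 and 3. The replication genes averaged 3173 CPM in controls against 2956 CPM in Foxp1-deficient libraries, with points of both groups overlapping in every list.

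The promoters of Mcm7, Rfc3, Rpa2 and Mcm3 are shown because these 4 genes had the lowest unadjusted p of the 36 in the edgeR fit with the replicate block. The sequences are RefSeq's (GRCm38.p6) and run from 250 bases before to 50 bases after the start site, and 29 of the 36 genes had at least 1 such entry. Capitals mark matches, on either strand, to the E2F letters TTTCCCGC, TTTCGCGC, TTTGCCGC or TTTGGCGC and to the CCAAT box. In Mcm7 an E2F match and a CCAAT box share a base.
Mcm7, chr5:138171834-138172133, minus strand: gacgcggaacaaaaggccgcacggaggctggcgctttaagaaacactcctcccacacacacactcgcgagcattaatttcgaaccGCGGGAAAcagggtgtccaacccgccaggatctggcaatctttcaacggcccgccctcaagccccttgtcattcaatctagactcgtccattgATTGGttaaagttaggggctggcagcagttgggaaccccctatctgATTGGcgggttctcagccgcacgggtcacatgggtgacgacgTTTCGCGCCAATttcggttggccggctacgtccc
Rfc3, chr5:151651159-151651458, minus strand: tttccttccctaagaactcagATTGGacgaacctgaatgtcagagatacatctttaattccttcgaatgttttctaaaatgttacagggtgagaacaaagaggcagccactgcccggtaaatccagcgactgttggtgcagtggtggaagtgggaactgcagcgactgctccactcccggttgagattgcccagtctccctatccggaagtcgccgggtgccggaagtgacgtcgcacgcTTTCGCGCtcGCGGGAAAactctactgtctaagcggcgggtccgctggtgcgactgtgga
Rpa2, chr4:132768110-132768409, plus strand: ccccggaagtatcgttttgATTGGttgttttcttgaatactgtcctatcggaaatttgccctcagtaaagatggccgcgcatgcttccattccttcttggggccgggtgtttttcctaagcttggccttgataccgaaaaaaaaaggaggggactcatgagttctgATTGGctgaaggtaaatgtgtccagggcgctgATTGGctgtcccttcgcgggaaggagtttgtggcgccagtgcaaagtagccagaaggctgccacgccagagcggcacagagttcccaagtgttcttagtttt
Mcm3, chr1:20820263-20820562, minus strand: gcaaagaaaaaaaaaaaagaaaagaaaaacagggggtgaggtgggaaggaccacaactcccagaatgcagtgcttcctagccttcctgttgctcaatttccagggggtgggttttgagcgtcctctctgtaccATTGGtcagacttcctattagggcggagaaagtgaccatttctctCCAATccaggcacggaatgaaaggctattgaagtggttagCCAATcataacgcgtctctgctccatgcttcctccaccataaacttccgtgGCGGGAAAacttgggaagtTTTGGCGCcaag

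Mcm7 and Rfc3 each hold 2 E2F matches, 1 of them TTTCGCGC, which begins at base 17 after the start site in Mcm7 and at base -10 in Rfc3. Mcm3 also holds 2, both after the start site, whereas Rpa2 holds 3 CCAAT boxes and none of the E2F letters. Over all replication genes, 12 of 33 promoter entries (36.4%) held an E2F match, against 2.26% of all 32851 entries. The CCAAT box stood in 20 of the 33 (60.6%, against 37.4% of all entries) and the GC box GGGCGG in 23 (69.7%, against 35.7%). The cell cycle homology letters TTTGAA or TTCGAA stood in 6 (18.2%, against 19.2%). The forkhead letters TGTTTAC stood in 2 entries, those of Cdc45 and of the second entry of Mcm7 (6.06%, against 3.65% of all entries). These are matches of letters in a window, not sites shown to be bound.

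A larger difference than that between genotypes ran between the libraries numbered 2 and the others, in both groups alike. Replicate number took up a median of 73.4% of the variance of log2 CPM over the 36 genes and genotype 7.79%, against 79.3% and 5.73% over all genes tested. Of the 36 genes, 9 differed more than 2-fold between the libraries numbered 2 and the other 4, whereas 50.6% of all genes tested did. Rfc4, a small subunit of the clamp loader, reached 88.3 and 87.8 CPM in the libraries numbered 2, against 20.3 to 31.0 CPM in the others. Rfc2, another small subunit, had 188 and 198 CPM against 59.6 to 71.3 CPM. The clamp loader genes Rfc2 and Rfc4 were thus higher in both libraries numbered 2, while Rfc1 was lowest in control 2 and highest in Foxp1-deficient library 2.

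In the other direction, Mcm2 was at 61.1 and 67.8 CPM in the libraries numbered 2, against 123 to 188 CPM in the others. Within each group, the library numbered 2 was the lowest for the ring subunits Mcm2, Mcm3 and Mcm4 and the highest for Mcm5, Mcm6 and Mcm7. Rrm2 and Pola1 were also lower in the libraries numbered 2, by -1.53 and -1.36 on the log2 scale over both groups. The log2 ratio of library 2 to the mean of libraries 1 and 3 correlated between controls and Foxp1-deficient samples across 35 replication genes with a count in both (Pearson's r = 0.80, Spearman's rho = 0.78), and across 11796 tested genes at r = 0.74. Genes are not independent replicates, and the labels do not state what libraries of equal number share. Across the 36 genes the ratio had a Spearman's rho of -0.14 with log2 exon length, against -0.39 across 13551 tested genes.

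**Figure D4:**
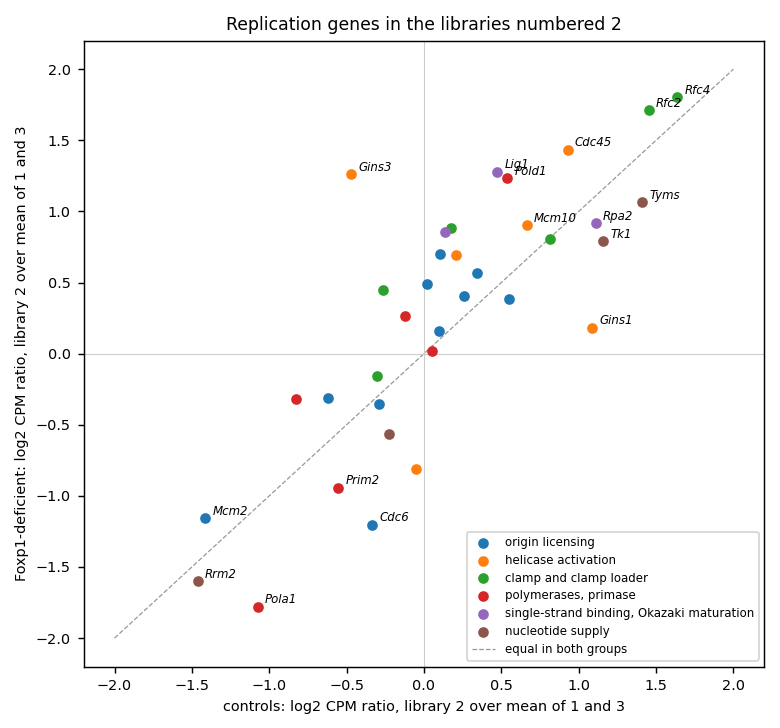
Log2 ratio of library 2 to the mean of libraries 1 and 3 for 35 replication genes, controls on the x axis and Foxp1-deficient libraries on the y axis, coloured by role, with a dashed line of equality. Rfc2 and Rfc4 lie at the upper right and Mcm2, Rrm2 and Pola1 at the lower left, and Gins3 lies far from the line.

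The libraries numbered 3 were lower than those numbered 1 in both groups for 23 of the 36 genes (36.7% of all genes tested were), including all 10 licensing genes. Rrm1 had the difference of largest size in Foxp1-deficient samples among the genes described above, -0.93 on the log2 scale (library 3 to library 1), and -0.42 in controls.

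Levels between genes were compared per length, as CPM per kb of annotated exon. The median over the 36 genes was 17.6 CPM per kb, and 29 of them lay above the median of all genes tested, 4.99 CPM per kb. Pcna was highest at 78.6 CPM per kb, followed by Mcm6 at 47.9, Mcm7 at 45.7, Rrm2 at 43.9 and Mcm5 at 42.1. The subunits of the licensing ring ran from 18.1 CPM per kb for Mcm2 to 47.9 for Mcm6. Of the genes that load the ring, Orc6 at 29.5 and Cdt1 at 23.8 lay within that range, and Cdc6 at 5.28 and Orc1 at 3.61 lay below it. Of the catalytic polymerase subunits, Pola1 at 3.53 and Pole at 4.14 lay below the median of all genes tested, whereas Pold1 at 18.2 lay above the median of the 36. Rrm1 had the highest CPM of the 36, a mean of 315, but ranked eleventh per length, at 28.6 CPM per kb, since its annotated exons span 11012 bases. The length joins all annotated exons of a gene, so a gene with long exons that these cells do not use reads too low.

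Fen1, the flap endonuclease that trims Okazaki fragments, was lowest on both scales. It had 100, 8 and 152 counts in controls 1, 2 and 3 and 106, 0 and 133 counts in Foxp1-deficient samples 1 to 3. The count of 0 allows up to 3 counts (0.383 CPM, counting error only). Fen1 (chromosome 19, 10199132 to 10204169, minus strand, mm10) shares 84.2% of its 2422 exon bases with exons of Tmem258 and Gm10143 on the other strand. The counting command sets neither strand nor counting of fragments for more than 1 gene, and by default such fragments go to neither gene, so the value may understate the level of Fen1. Tmem258, which lies opposite, was at 168.5 and 129.7 CPM in the libraries numbered 2, against 28.3 to 51.5 CPM in the others, the reverse of Fen1.

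Exon overlap with other genes touched 13 of the 36 genes, and exceeded 10% of exon bases in 7. Gins2 shared 67.3% of its exon bases with Gse1 on the other strand, and the remaining 5 of the 7 were Rfc2 (15.1%), Mcm7 (12.6%), Rfc4 (12.6%), Orc1 (10.8%) and Rfc5 (10.7%). Mcm7 (chromosome 5, 138164583 to 138172422, minus strand, mm10) overlaps Ap4m1 and Cops6 on the other strand and hosts the microRNA genes Mir25 and Mir93 on its own. Rfc3 (chromosome 5, 151642756 to 151651242, minus strand), Mcm3 (chromosome 1, 20802968 to 20820312, minus strand) and Rpa2 (chromosome 4, 132768332 to 132778752, plus strand) overlap no other annotated exon. Among the 29 genes with at most 10% overlap, 20 were lower and 9 higher (median log2 fold change -0.08), close to that of all 36.

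**Figure D5:**
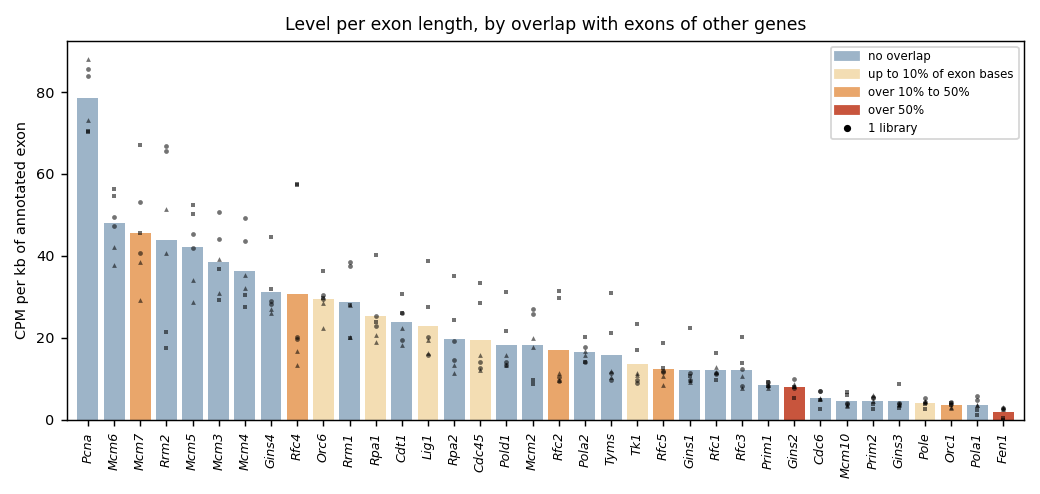
CPM per kb of annotated exon for the 36 replication genes, ordered by the mean of 6 libraries (bars), with 1 point per library and bar colour for the share of exon bases that overlap exons of other genes. Pcna leads at 78.6, and Fen1 and Gins2, the genes with over 50% overlap, lie at 1.86 and 7.97.

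Genes of related function were counted in the same fit. Of 31 further genes of the replication machinery, 21 were lower and 10 higher (median log2 fold change -0.14), and 0 passed the test. Timeless, of the fork protection complex, had 31.9 ± 14.3 CPM in controls against 20.8 ± 9.58 in Foxp1-deficient samples (SD, n = 3 each). Gmnn, which encodes the Cdt1 inhibitor geminin, had 38.6 ± 7.05 and 28.4 ± 9.0 CPM, and Cdc7, the kinase that fires origins, 13.8 ± 6.43 and 19.96 ± 3.62 CPM, in the opposite direction. Of 12 further nucleotide supply genes 8 were lower and 4 higher (median -0.10), among them Shmt1 with 26.9 ± 5.17 and 17.1 ± 8.06 CPM, Rrm2b, the p53-inducible reductase subunit, with 6.87 ± 2.46 and 11.5 ± 6.87, and Ctps with 247 ± 31.0 and 209.2 ± 70.3. Of 10 genes of replication-coupled chromatin assembly 8 were lower and 2 higher (median -0.12), with Asf1a at 34.8 ± 7.74 and 28.7 ± 8.80 CPM, Nasp, a histone chaperone, at 173 ± 9.89 and 149.5 ± 8.93, and Ssrp1 at 356 ± 79.8 and 308 ± 62.0.

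The G1/S regulators, which control the entry into replication, had 10 lower and 13 higher, with a median log2 fold change of 0.03. E2f1 had 26.1 ± 2.27 CPM in controls against 33.8 ± 16.1 in Foxp1-deficient samples (SD, n = 3 each), E2f2 6.42 ± 1.34 and 11.1 ± 8.35, and E2f4 77.4 ± 10.9 and 64.5 ± 18.3. For E2f1 and E2f2 the higher mean came from Foxp1-deficient library 2, with 52.1 and 20.8 CPM. Of 20 genes of G2 and mitosis, 15 were lower and 5 higher (median -0.07), equal to that of the replication genes to 2 decimals. Bub1, a spindle checkpoint kinase, had 58.8 ± 12.3 and 44.0 ± 20.7 CPM, Cdk1 181 ± 48.1 and 149 ± 35.6, and Aurka, another mitotic kinase, 73.4 ± 11.4 and 62.7 ± 6.05. Of 9 DNA repair paralogs of replication genes 5 were lower and 4 higher (median -0.05), with Mcm8 at 15.8 ± 1.30 and 12.1 ± 6.52 CPM. No gene of these 6 lists passed the edgeR test, and 1, Rnaseh2c of the replication machinery, had an unadjusted p under 0.05 with the replicate block, a level that 5.32% of all genes passed.

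Marker genes of other cell types were summed per library in the same way, and none of them passed the edgeR test, with or without the replicate block. With the block, 7 of 12 macrophage and leukocyte genes (all lower) and 6 of 8 mesothelial genes (all higher) had an unadjusted p under 0.05. So did 3 of 9 tested stromal genes (2 of them lower) and 2 of 9 endothelial genes (1 lower), against 5.32% of all genes tested. All 12 macrophage and leukocyte genes were lower in Foxp1-deficient samples, with summed levels of 330 to 1101 CPM in controls against 58.4 to 574 CPM in Foxp1-deficient samples, and Mpo at 0 in 1 library. Of 8 mesothelial genes 7 were higher, with summed levels of 2214 to 3531 and 3602 to 9444 CPM and none at 0. Of 9 tested stromal genes 5 were lower. All 10 listed stromal genes had summed levels of 7124 to 19418 and 4250 to 19862 CPM, with Foxd1 at 0 in some libraries. Of 9 endothelial genes 6 were lower, with 111 to 217 and 152.5 to 205 CPM, and Cdh5, Flt1, Emcn and Plvap were at 0 in some libraries. The part of these cell types in the levels of replication genes was not tested.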

How the data were processed

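Ribosome-bound RNA of neonatal mouse kidney was sequenced in 6 libraries, 3 per group, grouped by their labels. The deposited table holds raw fragment counts per gene name, made by the authors with featureCounts 1.5.1 over exons (mm10, annotation V86, paired ends, no strand option), per the file headers, beside the exon length of each gene (merged exon bases, deposited by the authors). The submitters' processing notes also name FastQC, Trimmomatic, STAR, SAMtools, deepTools and DESeq2, without roles. All 48587 rows carry a gene name, and libraries hold 9710048 to 18958196 counts, so a count of 0 allows up to 3 counts, or 0.158 to 0.309 CPM of the library total before TMM scaling, counting error only.

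Genes were filtered with filterByExpr, scaled by TMM and tested with edgeR's quasi-likelihood test (edgeR 4.0.16, R 4.3.3), two-sided, with Benjamini-Hochberg adjustment over all 14311 genes tested and a threshold of 0.05. The fit used all 6 libraries without a block. Libraries of equal number deviated together from their group means (r = 0.574, 0.53 and 0.617 for numbers 1, 2 and 3, against -0.426 to 0.0634 between unequal numbers), so equal numbers were treated as pairs, a reading that rests on the data, since the labels do not explain the numbers. Deviations from a group mean cancel out within the group, so the values between unequal numbers are not independent of those between equal ones. Alternatives were the replicate block, DESeq2 1.42.0, limma-voom (limma 3.58.1), other scalings and filters, each library left out, and the pair numbered 2 or 3 left out. The edgeR fits were tested on simulated data with set changes: both recovered their size and nearly always their direction, but the fit without the block passed none of the changed genes, so a lack of calls in it does not show that genes were alike. CPM per kb divides by the deposited exon length. Exon overlap came from the deposited exon coordinates.

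The replication genes and the gene lists were chosen with earlier results of these data known. Values were printed for up to 3 genes per role, the 2 of lowest unadjusted p without the block and the 1 of highest level per kb, and for up to 3 genes of lowest unadjusted p of each other list. Orc1, Orc6, Cdc6, Cdt1, Mcm2, Mcm4, Mcm5, Mcm10, Cdc45, Gins2, Rfc2, Rfc4, Rfc5, Prim2, Pola1, Prim1, Lig1, Fen1, Tk1 and Rnaseh2c were named in addition after their values were seen. Levels of marker genes of 8 cell types were summed.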

Additional observations from a re-analysis of the deposited data

How the results depend on the processing

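No setting called any of the 36 replication genes. The number of all genes called, 0 without and 0 with the replicate block in edgeR, was 6 in DESeq2, and with the replicate block 171 in DESeq2, 244 in limma-voom with quality weights and 8 in limma-voom without them, an alternative chosen after seeing the data. With the block it was 30 without both libraries numbered 2 and 6 without both numbered 3. The replicate block changed no call of a replication gene, and gave a median log2 fold change of -0.10 with 27 genes lower. Of 357 comparisons of the 17 genes named by rule with an alternative, 341 kept their direction and 16, in 8 genes, reversed. Gins3 was -0.049 in limma-voom with quality weights and -0.10 without both libraries numbered 2, with or without the block. Pold1 was -0.15 in limma-voom with quality weights, -0.11 in limma-voom with quality weights and the block, and -0.16 without both libraries numbered 2, with or without the block. In limma-voom with the block and no weights Pold1 kept its direction, at 0.058. Leaving out 1 library at a time gave log2 fold changes of -0.69 to 0.19 for Rrm2, -0.19 to 0.072 for Mcm6, -0.80 to 0.023 for Rpa2, -0.83 to 0.23 for Tyms, -0.065 to 0.31 for Gins4, -0.36 to 0.36 for Pold1 and -0.0094 to 0.53 for Rpa1. It gave -0.15 to 0.024 for the median of the 36 genes and -0.21 to 0.030 for the log2 ratio of their summed level, reversed without control 2 and without Foxp1-deficient library 3 respectively. The cause was not tested. With 3 libraries per group, the median standard error over the 36 genes was 0.42 on the log2 scale without the block and 0.18 with it, which limits what could be detected.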

Other observations

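Several genes chosen after their values were seen were highest in Foxp1-deficient library 2 alone. Gins3 had 23.7 CPM there and 7.67 to 11.2 CPM in the other 5 libraries, Rpa1 224 and 106 to 141 CPM, and E2f2, an activating E2F gene, 20.8 and 5.36 to 7.92 CPM. Mki67, a proliferation marker, had 138, 368 and 308 CPM in controls 1, 2 and 3 against 157, 276 and 339 CPM in Foxp1-deficient samples 1 to 3. Top2a, which encodes the topoisomerase of dividing cells, had 389, 235 and 323 CPM and 394, 197 and 317 CPM, lowest in the libraries numbered 2. Both markers thus followed the replicate number more than the group. Tubule marker sums ran alongside replicate number as well. The 10 proximal tubule genes (of 9 tested, 6 lower and 3 higher) summed to 41.3, 139.7 and 973 CPM in controls. In Foxp1-deficient samples they summed to 88.1, 158 and 1031 CPM. The 8 nephron progenitor genes (of 6 tested, 5 lower and 1 higher) summed to 23.1, 34.2 and 26.1 CPM for controls 1, 2 and 3. For Foxp1-deficient samples 1 to 3 the sums were 15.9, 15.7 and 21.5 CPM. They were lower in each pair and without overlap, although none of the 6 tested genes passed the edgeR test. The 10 erythroid genes (of 9 tested, 2 lower and 7 higher) summed to 3027, 2014 and 664 CPM and to 3262, 2015 and 1778 CPM.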
